A study of Mus musculus with 74 samples.

Results

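The beta1-adrenergic receptor gene Adrb1 and the adenylyl cyclase genes Adcy2, Adcy3, Adcy4, Adcy5, Adcy6, Adcy7, Adcy8 and Adcy9 were followed from primary mammary tumor (PT) to lung metastasis (Lung met). The 9 genes were chosen by name, as 1 receptor and 8 cyclases, with earlier results of these data known. Each was looked up by its gene symbol. All 9 had a mean in 4 of the 5 tables used, and 8 had one in the FVB Her2 table, which has no row for Adcy2 and holds 18208 genes in all. The other tables hold 19320 genes for FVB C3Tag, 17270 for BALB PyMT-F1, 17351 for SEAGN PyMT-F1 and 17829 for the table deposited under the name AKR.

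RNA was sequenced from matched PT and Lung met tissue of 37 female mice, 74 samples in all, to ask how oncogenic driver and genetic background shape gene expression in metastases. There were 6 samples per tissue in each model and 7 in C3Tag. The driver models carried 1 transgene each on the inbred FVB background: the rat neu proto-oncogene under the mouse mammary tumor virus promoter (MMTV-Her2), or the SV40 large T antigen under the C3(1) promoter (C3TAg). The PyMT-F1 models were the daughters of FVB males with the MMTV-PyMT transgene, which encodes the polyoma virus middle T antigen, and females of the strains BALB/cJ, Sea/GnJ or AKR/J. The labels give no age. They state collection at humane endpoints for all tissue, whereas the study's methods say so for PyMT mice and describe surgical resection of the tumors in the driver models, with metastases collected later. If so, time and tissue cannot be told apart in Her2 and C3Tag. All PTs of 1 mouse were combined before extraction and metastases were used whole, so both tissues are mixtures of tumor cells with the host cells around them. A lower mean can therefore reflect fewer cells of a type or less RNA per cell, and these cannot be told apart.

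Each table gives 1 mean of normalized signal per gene and tissue, computed by the authors over the animals of the model. The values of single mice were not used here, so neither the spread between animals nor the depth behind a mean is known, and no difference below was tested. A gene is called past the fold where 1 mean was at least 1.5 times the other, and the share of all genes of that table past the same fold stands beside the count. The tables were normalized separately, so levels are compared within a table only. The strain of the AKR-named table is unsettled. The study lists its ratios for Adcy2, Adcy3 and Adcy4 under another strain, BL6, and only 6 of the 12 samples that point to it are titled AKR, with 3 titled BALB and 3 titled SEA/Gn. Among the 36 PyMT-F1 samples, the title and the genotype named the same strain in 13, and the source name and the tissue differed in 16. Groups follow the titles, and which samples the authors averaged for each tissue of a cross could not be checked. The table is therefore called the AKR-named table and is not read as data of AKR. The Myc model is not analysed here, because the tissue means were not among the values used for it.

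Adrenergic receptors sense norepinephrine released by sympathetic nerves and epinephrine from the adrenal gland. The beta1 receptor couples to the stimulatory G protein Gs, whose alpha subunit is made by Gnas, and Gs switches on the membrane adenylyl cyclases, which turn ATP into cyclic AMP. Cyclic AMP then acts through protein kinase A and the exchange factors named EPAC, and phosphodiesterases remove it. The cyclases differ in what else they answer to. Adcy2, Adcy4 and Adcy7 are further stimulated by G protein beta-gamma subunits, Adcy5 and Adcy6 are inhibited by calcium, Adcy3 and Adcy8 respond to calcium with calmodulin, and Adcy9 is insensitive to the plant compound forskolin that activates the others.

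All 9 genes are protein coding in the GENCODE M21 annotation of GRCm38, which may not be the build behind the tables. Adrb1 lies at chr19:56722199-56733113 on the plus strand. Of the beta-gamma stimulated cyclases, Adcy2 is at chr13:68620043-68999541 and Adcy4 at chr14:55769057-55784095, both on the minus strand, and Adcy7 is at chr8:88272403-88329962 on the plus strand. Adcy5 lies at chr16:35154877-35305738 on the plus strand and Adcy6 at chr15:98589973-98610076 on the minus strand. Adcy3 lies at chr12:4133103-4213525 on the plus strand, and Adcy8, at chr15:64697084-64922296, and Adcy9, at chr16:4287529-4420498, are on the minus strand. Adcy3 shares 1380 exonic bases with Cenpo, Adcy6 shares 605 with Gm29331 and Adcy2 shares 189 with Gm35161, in each case a gene of the opposite strand. Whether the authors counted by strand is not given in the sources used here, so reads from these stretches may belong to either gene.

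Adcy2 and Adcy4 were higher in Lung met in every table that measured them. Adcy5 was lower in every table, but past 1.5-fold in BALB and SEAGN only. The promoters of Adcy2, Adcy4 and Adcy5 are shown for these directions. They are the 250 bases before the RefSeq start on GRCm38.p6, written 5′ to 3′ on the strand of the gene, at chr13:68999542-68999791 (minus), chr14:55784073-55784322 (minus) and chr16:35154614-35154863 (plus). Capitals mark the letters of 3 motifs searched on both strands: TGACG, the core of the cyclic AMP response element, GGAAG, the core bound by ETS factors, and GGGCGG, the GC box.
Adcy2: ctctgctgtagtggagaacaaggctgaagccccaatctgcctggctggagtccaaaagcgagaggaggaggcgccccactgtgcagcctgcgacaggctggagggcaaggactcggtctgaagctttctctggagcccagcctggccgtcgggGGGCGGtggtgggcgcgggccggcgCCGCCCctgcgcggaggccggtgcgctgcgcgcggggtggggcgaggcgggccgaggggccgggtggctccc
Adcy4: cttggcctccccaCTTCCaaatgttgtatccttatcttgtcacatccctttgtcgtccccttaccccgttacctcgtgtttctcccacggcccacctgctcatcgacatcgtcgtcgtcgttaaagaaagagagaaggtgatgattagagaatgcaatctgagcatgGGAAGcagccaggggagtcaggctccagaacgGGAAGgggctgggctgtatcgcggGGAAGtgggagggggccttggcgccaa
Adcy5: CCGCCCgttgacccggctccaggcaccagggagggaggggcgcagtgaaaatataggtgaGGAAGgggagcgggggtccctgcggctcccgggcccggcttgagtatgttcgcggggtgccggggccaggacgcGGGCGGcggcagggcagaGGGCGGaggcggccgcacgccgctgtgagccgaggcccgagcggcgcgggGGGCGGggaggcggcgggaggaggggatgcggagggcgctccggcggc

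The Adcy4 window held 4 copies of GGAAG and neither of the other motifs. Adcy5 held 4 GC boxes and 1 GGAAG, Adcy2 held 2 GC boxes, and none of the 3 windows held TGACG. Over all 32851 windows of this length, 64.1% held GGAAG, 32.7% the GC box and 17.8% TGACG. G and C made up 56.0% of the Adcy4 window, against a median of 52.4% over all windows, 73.2% for Adcy2 and 78.0% for Adcy5. The windows held 13, 23 and 32 CpG dinucleotides in Adcy4, Adcy2 and Adcy5, where the median window held 6. Windows were listed for 7 of the 9 genes, and Adrb1, Adcy7 and Adcy9 each had 1 with a TGACG. These matches describe the letters only.

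Adcy4 was the member whose Lung met mean was higher by over 1.5-fold in all 5 tables, and Adcy2 was higher by that fold in all 4 tables that list it. With 10 added to both means, Adcy4 came inside the fold in BALB (0.53) and SEAGN (0.49). Adcy5 was lower in all 5 tables, past the fold in BALB and SEAGN. Adcy8 was past the fold in every table but in both directions, lower in Her2, BALB and SEAGN and higher in C3Tag and the AKR-named table. Adcy7, Adcy3 and Adcy9 stayed within the fold throughout, Adcy6 was past it only in the AKR-named table and Adrb1 only in C3Tag.

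**Figure D1:**
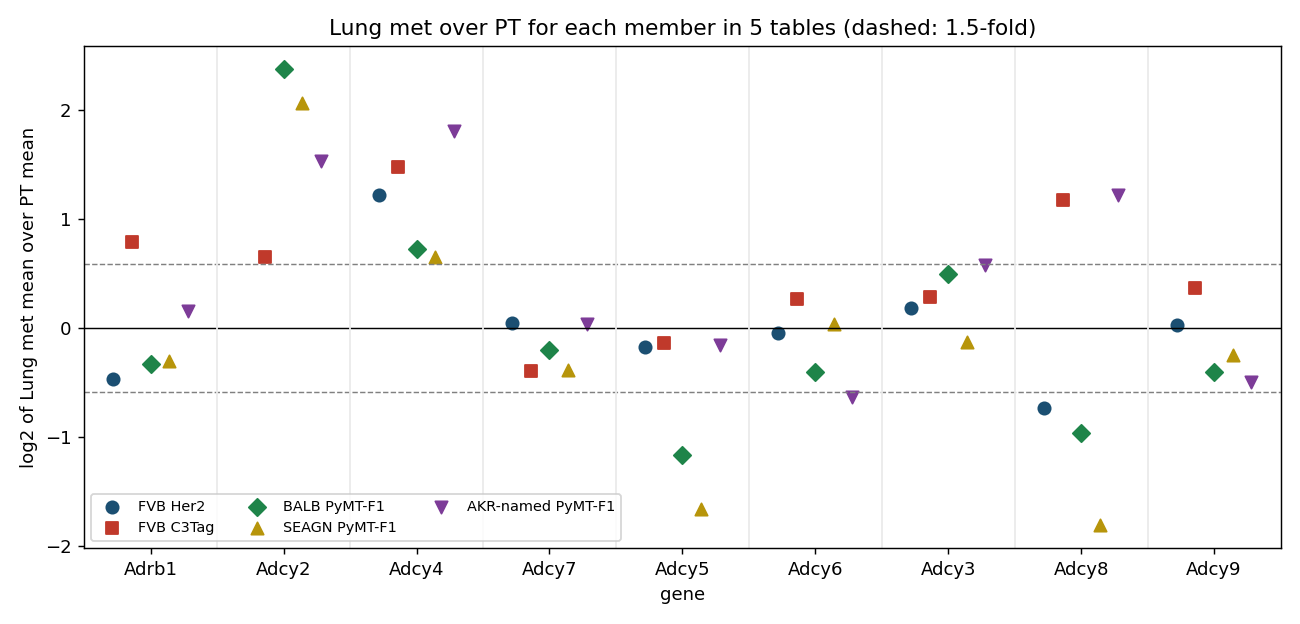
Lung met over PT for the 9 genes, with the gene on the x axis and the log2 of the quotient of both group means on the y axis. Each point is 1 table, the dashed lines mark 1.5-fold and no error is known. All Adcy2 and Adcy4 points lie above the upper line, between 0.65 and 2.38, and all Adcy5 points lie below 0.

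Of 8 members in Her2, 1 was past the fold and higher (Adcy4) and 1 was lower (Adcy8), where 5.42% of all genes were higher and 3.62% lower. C3Tag had 4 of 9 higher (Adrb1, Adcy2, Adcy4 and Adcy8) and 0 lower, against 14.0% and 5.61% of all genes. BALB and SEAGN gave the same sets, with Adcy2 and Adcy4 higher and Adcy5 and Adcy8 lower in each. The shares of all genes were 6.20% higher and 6.76% lower in BALB, and 7.11% and 8.32% in SEAGN. Of the 9 members in the AKR-named table, 3 were higher (Adcy2, Adcy4 and Adcy8) and 1 was lower (Adcy6), against 13.6% and 6.32% of all genes. The members' median log2 ratio was -0.01 in Her2, 0.36 in C3Tag, -0.33 in BALB, -0.25 in SEAGN and 0.15 in the AKR-named table, whereas the median of all genes lay between -0.00129 and 0.0298.

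At 2-fold, Adcy4 alone remained in Her2 (2.38% of all genes were higher by that fold and 1.43% lower), and Adcy4 and Adcy8 in C3Tag (7.42% and 1.70%). BALB kept Adcy2 as higher and Adcy5 as lower (2.26% and 2.40%), and SEAGN kept Adcy2 as higher with Adcy5 and Adcy8 as lower (2.86% and 3.22%). Adcy2, Adcy4 and Adcy8 were higher by at least 2-fold in the AKR-named table (7.31% and 1.73%).

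**Figure D2:**
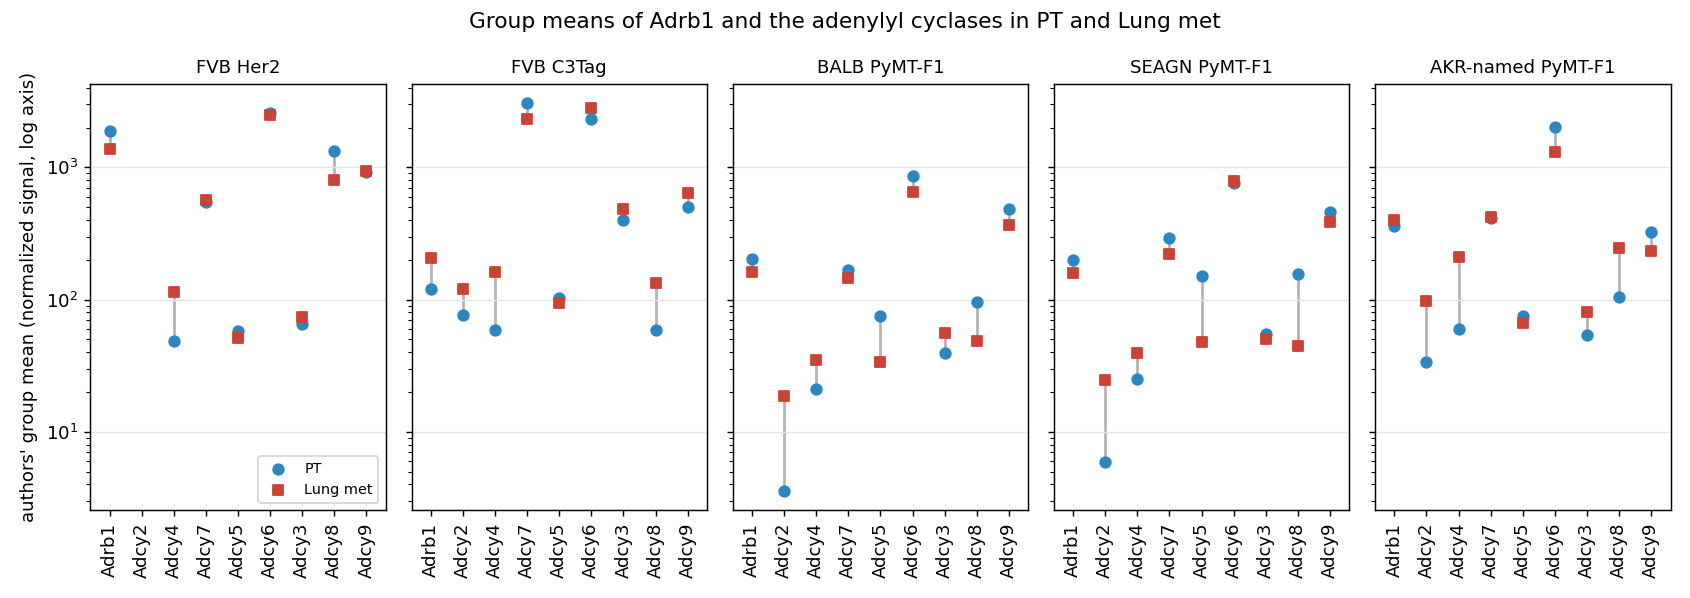
Group means of the 9 genes in PT (circles) and Lung met (squares), 1 panel per table, on a log axis in units of the authors' normalized signal. Each point is a mean over the animals of the model, grey lines join both tissues, and Adcy2 has no row in Her2; the largest gap is that of Adcy2 in BALB, from 3.58 to 18.6.

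The receptor gene Adrb1 had its highest place in the Her2 table, where its PT mean of 1887 was above that of 81.6% of genes. Its Lung met mean there was 1368, a log2 ratio of -0.46, which lay inside the fold although only 5.12% of genes had a lower ratio. Adrb1 was higher in Lung met in C3Tag, from 120 to 206, a log2 ratio of 0.79. The crosses were closer to even. BALB had 204 in PT and 162.3 in Lung met (log2 ratio -0.33), SEAGN had 198 and 160 (-0.31), and the AKR-named table had 359 and 399 (0.15). The PT mean of Adrb1 was above 34.1% of genes in C3Tag, 59.8% in BALB, 60.7% in SEAGN and 45.3% in the AKR-named table, and these ranks depend on which genes a table lists.

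Adcy4, a beta-gamma stimulated cyclase, was higher in Lung met in every table. In Her2 tumors its mean was 49.0, beside 114 in the metastases (log2 ratio 1.22). The C3Tag means were 58.6 for PT and 163 for Lung met (1.47). In BALB it was 21.1 and 34.8 (0.72), and in SEAGN 25.2 and 39.5 (0.65). The AKR-named table had the widest gap, from 60.1 to 209, a log2 ratio of 1.80. Adcy4 was a low gene in every tumor, with a PT mean above 20.7% to 25.3% of genes, and its ratio was above that of 98.3% of genes in Her2, 96.0% in C3Tag, 95.5% in BALB, 94.0% in SEAGN and 97.5% in the AKR-named table.

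Adcy2 had the largest ratio of any member in BALB and SEAGN, while Adcy4 was above it in C3Tag and the AKR-named table. Its mean was 3.58 in PT and 18.6 in Lung met in BALB, a log2 ratio of 2.38, and 5.87 and 24.6 in SEAGN, a ratio of 2.07. The PT means in these crosses were above only 1.46% and 5.73% of genes, so the ratios rest on small values. With 10 added to both means they were 1.07 in BALB and 1.12 in SEAGN. In the AKR-named table Adcy2 went from 33.95 to 98.2 (1.53), and in C3Tag from 76.4 to 120 (0.65). Its PT mean in C3Tag was above 28.5% of genes.

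Adcy7, the cyclase of this class best known from blood cells, stayed within the fold in every table. Its PT mean ranked highest in C3Tag, where 3069 was above 91.6% of genes, and its Lung met mean there was 2339, a log2 ratio of -0.39. SEAGN had 291 in PT and 223 in Lung met (-0.39). Adcy7 was nearly even elsewhere, with 550 and 567 in Her2 (0.04), 166 and 144.9 in BALB (-0.20) and 411 and 421 in the AKR-named table (0.04).

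Of the calcium-inhibited cyclases, which are both prominent in heart, Adcy6 lay above Adcy5 in every table and tissue per kb of transcript. The Adcy5 mean was 75.2 in PT and 33.5 in Lung met in BALB (log2 ratio -1.16) and 151 and 47.8 in SEAGN (-1.66), and only 1.77% and 1.13% of genes had lower ratios. Her2 tumors had a mean of 57.6 beside 51.1 in their metastases (-0.17), and the C3Tag means were 103 for PT and 93.7 for Lung met (-0.13). The AKR-named table gave 74.7 and 67.1 (-0.16). In Her2, C3Tag and the AKR-named table, 19.9%, 31.6% and 31.7% of genes had lower ratios.

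Adcy6 means were 2562 and 2474 in Her2 (log2 ratio -0.05), 2329 and 2793 in C3Tag (0.26) and 766 and 786 in SEAGN (0.04). BALB had 866 in PT and 657 in Lung met, a ratio of -0.40. The AKR-named table had the widest gap, 2030 in PT and 1313 in Lung met (-0.63), just past the fold. In PT, Adcy6 was above 82.5% to 89.1% of genes.

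Adcy8, a calcium-calmodulin cyclase best known from brain, had the widest spread of ratios among the members. Its PT mean in Her2 was 1336, above 74.0% of genes, and its Lung met mean was 806, a log2 ratio of -0.73. In the crosses to BALB and Sea/GnJ it was also lower in Lung met, from 95.3 to 49.1 (-0.96) and from 156 to 44.5 (-1.81), and in SEAGN 0.85% of genes had a lower ratio. C3Tag and the AKR-named table had the opposite direction, from 58.9 to 133 (1.17) and from 105 to 244 (1.22). Whether the ratios differ between models could not be tested on means.

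Adcy3, the cyclase of olfactory neurons and primary cilia, was slightly higher in Lung met in 4 tables. Its means were 65.2 and 74.1 in Her2 (log2 ratio 0.19), 398 and 484 in C3Tag (0.28) and 39.5 and 55.7 in BALB (0.49). SEAGN had 54.9 in PT and 50.2 in Lung met (-0.13), and the AKR-named table had 54.0 and 80.3 (0.57), just inside the fold. Its PT rank was highest in C3Tag, above 51.9% of genes, whereas the other tables placed it above 23.9% to 35.0%.

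Adcy9, which is expressed in many tissues, stayed within the fold in all 5 tables. It had means of 926 and 942 in Her2 (log2 ratio 0.03) and 499 and 643 in C3Tag (0.36). All 3 crosses had lower means in Lung met. BALB went from 482 to 364 (-0.40), SEAGN from 457 to 384 (-0.25) and the AKR-named table from 326 to 232 (-0.49).

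Levels of different cyclases were compared within a tissue after division by transcript length, taken as the longest coding transcript of GENCODE M21. The sum covers only the 8 cyclases followed here, or 7 in Her2, which lacks Adcy2. Any other cyclase gene is left out, so the shares are not those of all cyclases. Adcy6 was first by mean per kb in PT of 4 tables and in Lung met of all 5, with 33.8% to 63.1% of the summed cyclases in PT. In Her2 PT the order was Adcy6 with 45.7% of the sum, Adcy8 with 20.6%, Adcy9 with 20.0% and Adcy7 with 9.95%, and Adcy4, Adcy3 and Adcy5 had at most 1.51% each. With all annotated exons as the length, Adcy9 (21.5%) lay above Adcy8 (19.7%). Whether neighbours in these orders differ is unknown, since the spread between animals is.

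C3Tag PT was the exception, with Adcy7 first at 45.2% and Adcy6 next at 33.8%. In its Lung met, Adcy6 had 38.9% and Adcy7 33.0%. Adcy3 held 7.04% of the sum in C3Tag PT, against 1.41% to 3.34% in PT of the other tables, and Adcy8 held 0.74% there against 20.6% in Her2 PT. In Her2 the Adcy8 share was 13.3% in Lung met.

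In PT of the crosses, Adcy6 was followed by Adcy9, with 31.5% of the sum in BALB and 27.8% in SEAGN. In the AKR-named table Adcy6 was followed by Adcy7 and Adcy9 with 13.0% and 12.3%, or 12.8% and 13.2% with all annotated exons as the length. Adcy4 made up 1.96% of the sum in PT and 4.08% in Lung met in BALB, 2.17% and 3.96% in SEAGN, and 3.22% and 12.5% in the AKR-named table. In Lung met of the AKR-named table it ranked below Adcy6 and Adcy7 only, although by all annotated exons Adcy4 and Adcy9 were near level (10.64% and 10.60%). By the longest coding transcript, Adcy2 reached at most 4.87% of the sum, in Lung met of the AKR-named table. The beta-gamma stimulated class together held 11.5% in PT and 14.8% in Lung met in Her2, 48.3% and 39.3% in C3Tag, 11.3% and 15.9% in BALB, 17.4% and 19.1% in SEAGN, and 17.7% and 32.2% in the AKR-named table. The summed cyclases per kb had a log2 ratio of -0.10 in Her2, 0.06 in C3Tag, -0.34 in BALB, -0.22 in SEAGN and -0.15 in the AKR-named table, so the sum lay within the fold in each.

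**Figure D3:**
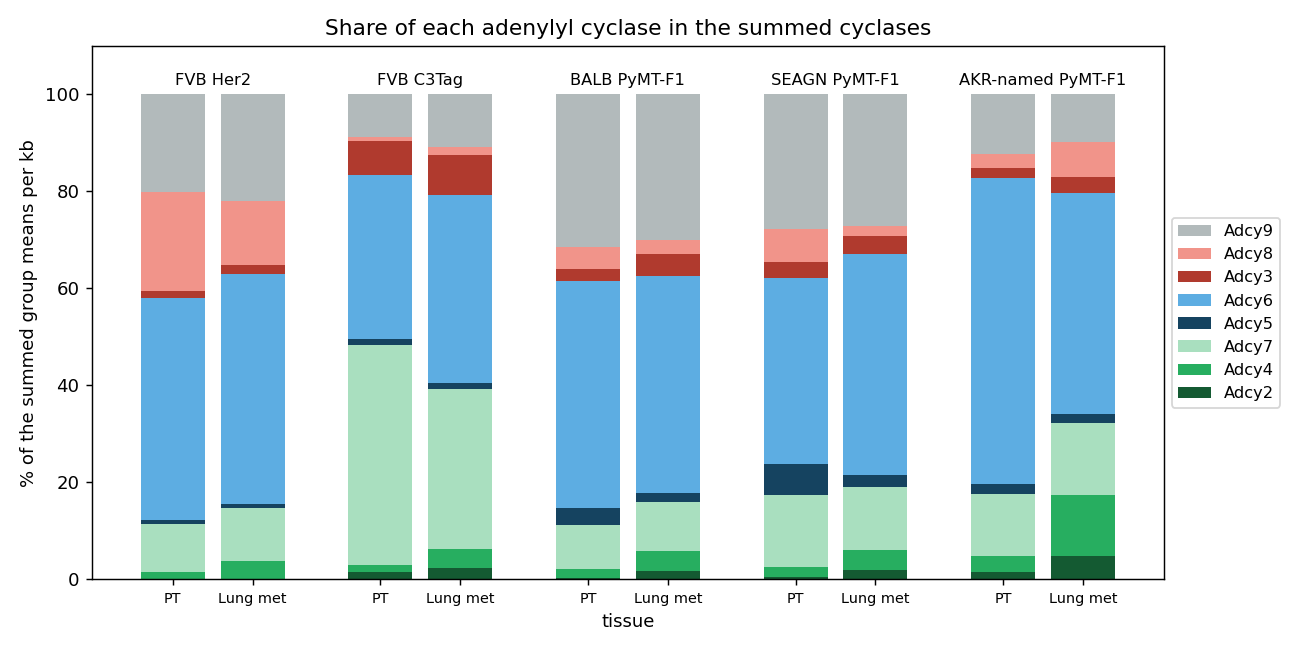
Share of each adenylyl cyclase (colors) in the summed cyclase means per kb, in percent, for PT and Lung met of each table. Each bar adds up to 100% within 1 table and tissue and carries no error; Adcy6 is the widest band in all bars but C3Tag PT, where Adcy7 has 45.2%.

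On the same scale per kb, the receptor gene Adrb1 was above every cyclase in both Her2 tissues, with 639 in PT and 463 in Lung met beside 424 and 410 for Adcy6. In C3Tag it was far below Adcy6, with 40.5 against 386 in PT. Adrb1 was also below Adcy6 in PT of the crosses, with 69.2 against 143 in BALB, 67.0 against 127 in SEAGN and 122 against 336 in the AKR-named table.

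Of the other genes around cyclic AMP, 86 were listed in 10 groups, and 72 to 79 of them had means in a table. In Her2, 14 of 79 were past the fold and higher in Lung met and 4 lower. C3Tag had 32 of 79 higher and 2 lower, BALB 11 of 72 higher and 9 lower, SEAGN 14 of 74 higher and 8 lower, and in the AKR-named table, 20 of 75 were higher and 2 lower. As shares of the listed genes, 17.7% were higher in Her2, 40.5% in C3Tag, 15.3% in BALB, 18.9% in SEAGN and 26.7% in the AKR-named table. Lower were 5.06%, 2.53%, 12.5%, 10.8% and 2.67% in the same order. Among all genes, 5.42%, 14.0%, 6.20%, 7.11% and 13.6% were higher. The shares of all genes that were lower were 3.62%, 5.61%, 6.76%, 8.32% and 6.32%. The median log2 ratio of the listed genes was 0.13 in Her2, 0.39 in C3Tag, 0.03 in BALB, 0.06 in SEAGN and 0.10 in the AKR-named table.

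Downstream of the receptor, Prkaca and Prkar1a were within the fold in all 5 tables, whereas Gnas passed it in 1, Rapgef3 in 3, Prkar1b in 4 and Gnai1 in 5. Gnas, the Gs alpha subunit, had log2 ratios of -0.06 in Her2, -0.07 in BALB, -0.22 in SEAGN and -0.06 in the AKR-named table, and in C3Tag it was higher, from 6966 to 14050 (1.01). Prkaca, the main catalytic subunit of protein kinase A, lay between -0.19 and 0.14, and Prkar1a, a regulatory subunit, between -0.09 and 0.46. The regulatory subunit Prkar1b was higher by the fold in 4 tables and just inside it in Her2 (0.57). Rapgef3, which makes the cyclic AMP sensor EPAC1, was past the fold and higher in Her2 (0.70), C3Tag (1.84) and the AKR-named table (0.62), but had ratios of -0.30 in BALB and 0.35 in SEAGN. Gnai1, an inhibitory alpha subunit that opposes the cyclases, was higher in all 5 tables, with log2 ratios between 1.20 and 1.93.

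The list of other receptors that couple to Gs and their partner proteins had 6 of 12 genes higher by the fold in Her2, 6 of 12 in C3Tag, 4 of 9 in BALB, 4 of 11 in SEAGN and 7 of 11 in the AKR-named table. Lower by the fold were 1 in C3Tag, 2 in SEAGN and 1 in the AKR-named table. Of all genes, 5.42% were higher in Her2, 14.0% in C3Tag, 6.20% in BALB, 7.11% in SEAGN and 13.6% in the AKR-named table. The shares of all genes that were lower were 3.62%, 5.61%, 6.76%, 8.32% and 6.32% in the same order. The genes named here are those past the fold in at least 4 tables. Calcrl, the calcitonin receptor-like receptor, was higher in all 5 tables, with log2 ratios from 1.98 in Her2 to 3.00 in C3Tag. Its means were 279 in PT and 1098 in Lung met in Her2, and 164 and 1308 in C3Tag. Its partner Ramp2, with which it forms an adrenomedullin receptor, was also higher in all 5, between 0.95 and 3.24. The adenosine receptor gene Adora2b was higher in all 5 as well, between 1.19 and 2.59, and the prostacyclin receptor gene Ptgir in 4, with 0.25 in Her2.

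The anchoring protein gene Akap5, whose product holds protein kinase A near membrane receptors, had the highest ratios of the named pathway genes in Her2, where it went from 63.8 to 636 (3.32). It was higher in all 5 tables, at least 1.78. Akap12 was higher by the fold in 4 tables and had a ratio of -0.25 in Her2. Pde3a, a cyclic AMP phosphodiesterase of heart, platelets and vessel wall, was higher by the fold in 4 tables, with 0.41 in C3Tag. Maob, a mitochondrial enzyme that breaks down amines, was higher by the fold in 4 tables and had a ratio of -0.10 in BALB.

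**Figure D4:**
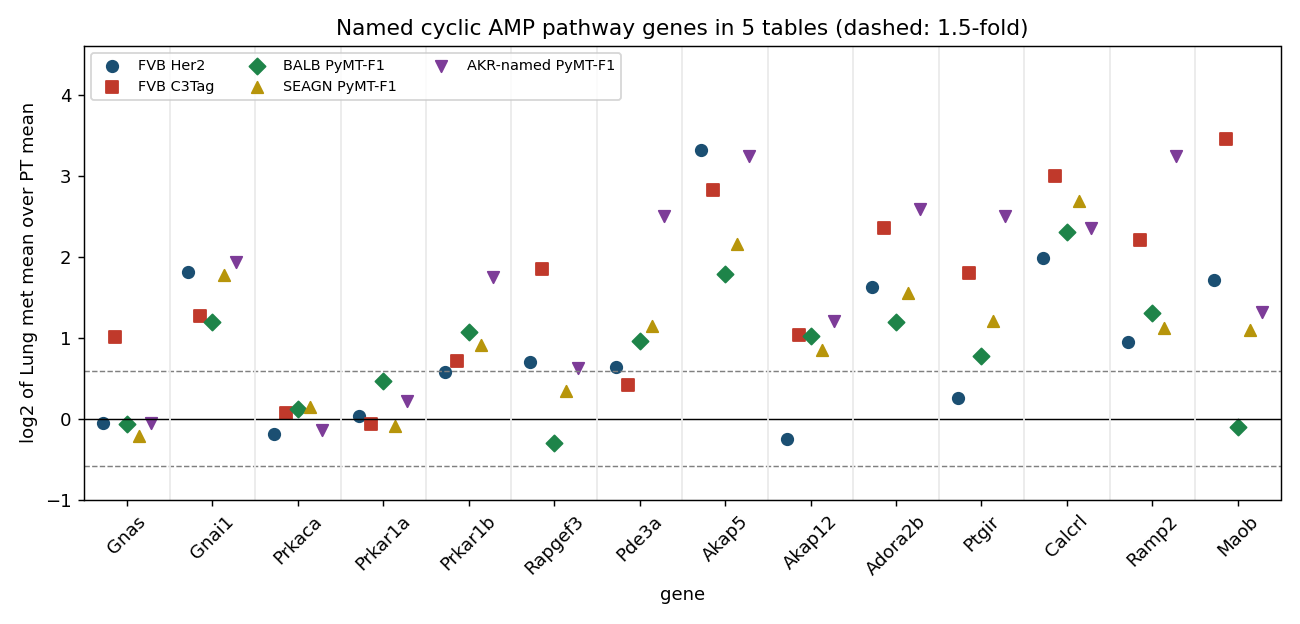
Log2 of Lung met mean over PT mean (y axis) for the named genes of the cyclic AMP pathway (x axis), 1 point per table, with dashed lines at 1.5-fold and no error known. Calcrl, Ramp2, Adora2b, Gnai1 and Akap5 lie above the upper line in all 5 tables, while Prkaca and Prkar1a lie between both lines.

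By group, the phosphodiesterases had 9 of 15 genes higher by the fold in C3Tag and 0 lower, but 1 of 15 higher and 2 lower in Her2, 2 of 13 higher and 1 lower in both BALB and SEAGN, and 3 of 14 higher and 0 lower in the AKR-named table. The receptor kinases and arrestins, which switch off adrenergic receptors, were within the fold in Her2 and SEAGN for all 7 genes, with 1 of 7 higher in C3Tag and the AKR-named table and 1 lower in BALB. The cyclic AMP response genes and their factors had 1 of 14 higher in Her2, 3 of 14 higher in C3Tag, 3 of 13 lower in BALB, 2 of 13 higher with 1 lower in SEAGN, and 0 of 14 in the AKR-named table. Alpha-adrenergic receptor genes had means for only 2 of 5 listed genes in 4 tables and for 0 of 5 in the AKR-named table. The measured genes were Adra2a and Adra2c in Her2, BALB and SEAGN, but Adra1d and Adra2a in C3Tag. Their ratios are given from low to high and not by gene. In Her2 the ratios were -2.04 and 0.93, and in C3Tag -0.78 and -0.56. Both genes measured were lower by over 2-fold in BALB (median log2 ratio -2.43) and SEAGN (-1.99). The protein kinase A genes had 0 of 9 past the fold in Her2, and 2 of 9 higher in C3Tag, BALB and SEAGN and 1 in the AKR-named table, with 1 lower in BALB. Of 6 G protein alpha genes, 3 were higher in C3Tag and 1 in each other table, with 0 lower. The EPAC list had 2 of 3 higher in Her2, 3 of 3 in C3Tag and the AKR-named table, and 0 of 2 in BALB and SEAGN, with 0 lower. Anchoring protein genes had 1 of 7 higher in Her2 and 2 in each other table, with 1 lower in Her2, SEAGN and the AKR-named table. Catecholamine genes had 1 of 4 higher in Her2 and SEAGN, 3 in C3Tag and 2 in the AKR-named table, with 1 lower in BALB and SEAGN. For all genes, the share higher by the fold was 5.42% in Her2, 14.0% in C3Tag, 6.20% in BALB, 7.11% in SEAGN and 13.6% in the AKR-named table. The share lower was 3.62%, 5.61%, 6.76%, 8.32% and 6.32% in the same order. Several of these group counts lie near those shares, and none was tested.

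Most alveolar epithelial markers were higher in Lung met. Ager, the receptor that marks alveolar type 1 cells, was higher in Lung met by a log2 ratio of 4.04 in BALB to 5.48 in the AKR-named table, and the median of the 7 type 1 markers lay between 2.06 and 3.86. Of the alveolar type 2 list, 5 of 8 genes had means, with medians between 1.26 in Her2 and 6.29 in C3Tag, and Sftpa1, Sftpb and Sftpc had none. The luminal keratin Krt8, which marks the tumor epithelium expected in both tissues, had ratios between -0.02 and 0.64, with means of 15220 in PT and 14989 in Lung met in Her2. The part of lung tissue in the members' ratios was not tested.

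The endothelial markers had ratios near those of Adcy4. All 11 were higher in Lung met in Her2, C3Tag and the AKR-named table and 10 of 11 in BALB and SEAGN, and Pecam1, the adhesion molecule of vessel lining, had ratios of 0.56, 1.26, 0.44, 0.63 and 1.87 in Her2, C3Tag, BALB, SEAGN and the AKR-named table. The summed endothelial means went from 4429 to 7326 in Her2, from 3603 to 10424 in C3Tag, from 1172 to 1854 in BALB, from 1304 to 2178 in SEAGN and from 3181 to 11340 in the AKR-named table. The median marker ratio was 0.70 in Her2, where Adcy4 had 1.22, and in the other tables the ratio of Adcy4 was 0.04 above it in C3Tag, 0.14 in BALB, 0.03 in SEAGN and 0.01 in the AKR-named table. The ratio of Adcy4 was above 6 to 9 of the 11 markers, and the part of endothelial cells in its ratio was not tested. Other lists also had medians near Adcy4 in some tables. Adcy4 minus the airway median, over 1 or 2 genes, was -1.63 in Her2, -0.06 in C3Tag, 0.08 in BALB, -0.95 in SEAGN and 0.12 in the AKR-named table. Adcy4 minus the myoepithelial median was 0.10 in Her2, -0.10 in BALB and -0.15 in SEAGN, but 2.57 in C3Tag and 2.15 in the AKR-named table. Adcy4 minus the lung endothelium median was -0.20 in Her2, 1.00 in C3Tag, -1.50 in BALB, -0.33 in SEAGN and -1.28 in the AKR-named table. The ratio of Adcy2 was 0.78 below the endothelial median in C3Tag and 0.26 below it in the AKR-named table, but 1.79 above it in BALB and 1.44 above it in SEAGN.

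Most fibroblast markers were lower in Lung met outside C3Tag, where 3 of 7 were lower by the fold, 2 were higher and the median was -0.06. The collagen gene Col1a1 had ratios of -1.34 in Her2, -0.62 in C3Tag, -1.90 in BALB, -2.81 in SEAGN and -1.41 in the AKR-named table, and 6 of 7 fibroblast genes were lower by the fold in every table but C3Tag. The summed fibroblast means went from 25092 to 10314 in Her2, from 44487 to 36895 in C3Tag, from 13714 to 4319 in BALB, from 19003 to 4616 in SEAGN and from 34597 to 12691 in the AKR-named table. Adcy5 was lowest in BALB and SEAGN, where the fibroblast medians were -1.74 and -2.32, but it was at -0.17 in Her2 and -0.16 in the AKR-named table, where they were -1.34 and -1.49. Acta1, the actin of skeletal muscle, was also lower in Her2, C3Tag, BALB and SEAGN, with ratios between -5.85 and -3.25, and was higher in the AKR-named table (1.72), where its means were 7.60 and 25.1. The adipocyte list had a mean for at most 1 of 6 genes, with Adipoq, Plin1, Cidec, Lep and Cfd without one in every table. In Her2, C3Tag, BALB, SEAGN and the AKR-named table, Adcy5 minus the fibroblast median was 1.16, -0.07, 0.57, 0.67 and 1.34. Minus the Schwann cell median it was 0.07, -0.45, -0.81, -1.41 and 0.19, so that list lay nearer in Her2 and the AKR-named table. Adcy8 minus the fibroblast median was 0.61, 1.23, 0.78, 0.51 and 2.71 in the same order. The part of any of these cells in the ratios of Adcy5 and Adcy8 was not tested.

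**Figure D5:**
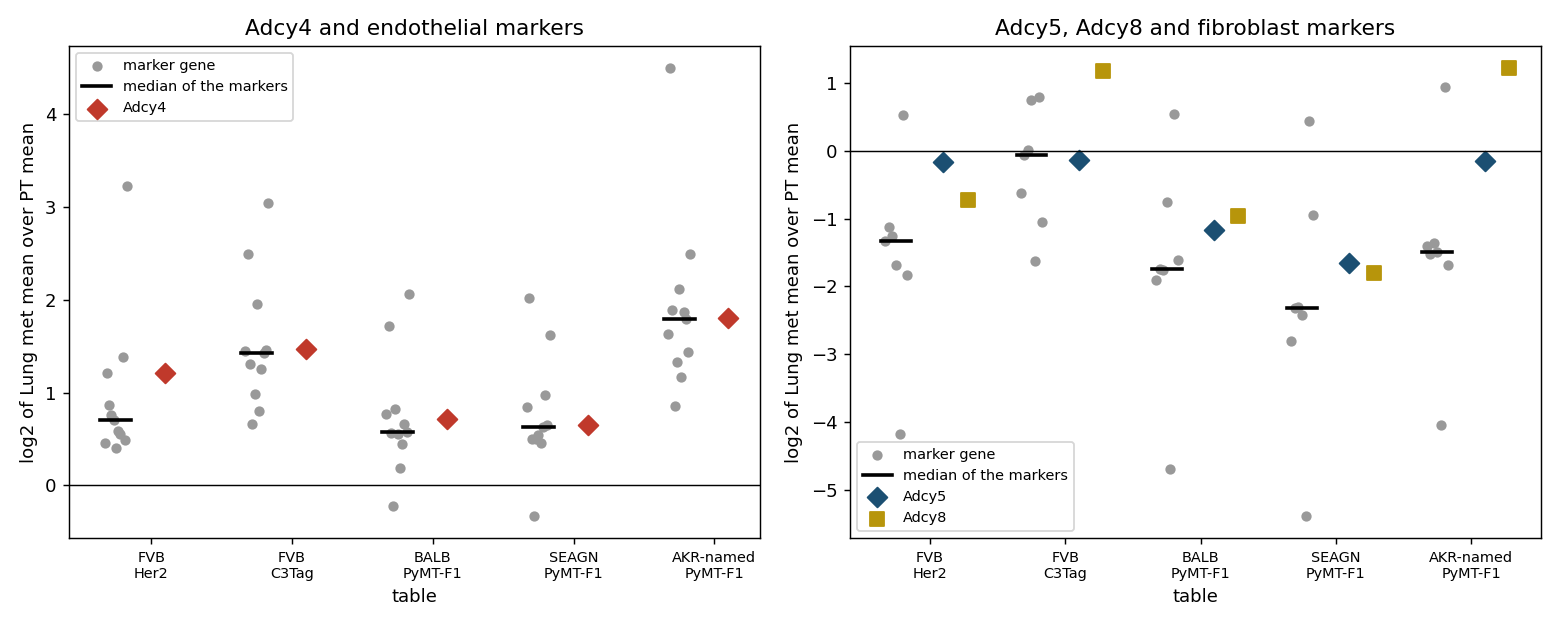
Log2 of Lung met mean over PT mean (y axis) by table (x axis) for Adcy4 beside 11 endothelial markers (left) and for Adcy5 and Adcy8 beside 7 fibroblast markers (right). Grey points are marker genes and black bars their median. Adcy4 lies within 0.14 of the median in all tables but Her2. Adcy8 lies above the fibroblast median in all 5, with the opposite sign in C3Tag (1.17 against -0.06) and the AKR-named table (1.22 against -1.49).

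The genes with ratios most like a member's over the 5 tables were found among 11920 genes with a mean of at least 10 in 1 tissue of every table, by the root mean square difference of the log2 ratios. For Adcy4 they were Tek, the angiopoietin receptor of endothelium, at 0.17, Egfl7 at 0.20 and Shank3 at 0.21, and Tek and Egfl7 are both on the endothelial list. Adrb1 was nearest to Cacna1a, a calcium channel subunit, at 0.04, followed by Lrp1 at 0.12 and Nrg2 at 0.13. Adcy5 was nearest to Gcnt4 at 0.16, then Wnt9a at 0.18 and Adamtsl1 at 0.19. The nearest genes were Ptprk for Adcy7 (0.06), Ftx for Adcy6 (0.09), 1810055G02Rik for Adcy3 (0.10) and Pkd1 for Adcy9 (0.08). Adcy2 was left out, as Her2 has no row for it. With 5 points per gene that share their tables, these distances are descriptions.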

How the data were processed

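Total RNA was extracted from PT and Lung met tissue with Trizol, and libraries were made with the Illumina Stranded Total RNA Prep with Ribo-Zero Plus, per the labels. The study's methods instead name TriPure for extraction, mRNA libraries and Illumina TruSeq chemistry, so the kind of library is unsettled. The authors aligned, counted and normalized the reads in Partek Flow, and modelled FVB drivers with its Gene Specific Analysis and PyMT-F1 models with DESeq2. The sources name several genome builds (mm9 and mm10 in the methods, mm39 with STAR 2.7.8a in the submitters' processing notes). BALB and SEAGN rows carry BALB/cJ gene identifiers and the other tables Ensembl ones. The deposited values used are the means of normalized signal per tissue, pooled over animals by the authors, in 5 tables. The p-values, false discovery rates, ratios and fold changes, which are the authors' own comparisons, were not used, and the Myc table holds no other values. Depth per sample is unknown and no interval or test was possible.

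Log2 ratios of Lung met over PT were taken without pseudocount, in Python 3.11.15 with pandas 2.3.3. The steps were run on simulated means with set ratios and no noise, which checks the code and not the error of any mean. Rows without both means (0 to 116 per table) were left out. Named genes were all members, listed pathway genes past 1.5-fold in 1 direction in at least 4 of 5 tables, Gnas, Prkaca, Prkar1a and Rapgef3 whatever their values, first marker genes, and 3 similar genes per member, of which only the nearest is given for some members and those of Adcy8 are not reported here. Markers were named from the first gene of a list, and those without means by their absence. Lists of 86 pathway genes and 17 cell types were matched by symbol or RefSeq synonym, and members and lists were chosen with earlier results of these data known. Alternatives added 1 or 10 to both means, subtracted the median ratio, used 2-fold, or kept means of at least 10.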

Additional observations from a re-analysis of the deposited data

How the results depend on the processing

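Adding 1 to both means or subtracting the median of all genes left all 44 member ratios on their side of the 1.5-fold limit and in their direction. With 10 added, 42 of 44 did, and Adcy4 came inside the fold in BALB (0.53) and SEAGN (0.49), so 1 member in place of 2 was higher in each of these tables. Keeping only genes with a mean of at least 10 in 1 tissue left the counts of members and pathway genes within 1.5 times the first ones, which is no sign of stability for Adcy2 in BALB and SEAGN, since it passes that limit through Lung met alone. At 2-fold, members lower in Lung met numbered 0 in Her2 and in the AKR-named table and 1 in BALB, and members higher numbered 2 in C3Tag, 1 in BALB and 1 in SEAGN. Pathway genes at 2-fold numbered 8 higher and 1 lower in Her2, 19 and 0 in C3Tag, 4 lower in BALB, 8 higher and 4 lower in SEAGN, and 1 lower in the AKR-named table, as a stricter fold must give fewer. With all annotated exons as length, chosen after seeing the data, the leading cyclase was the same in all 10 tissues. No paired analysis was possible because the tables give 1 mean per tissue and not the values of single mice, and for the same reason no animal could be left out in turn. The limits are those of group means: depth and spread are unknown, low means such as those of Adcy2 in BALB and SEAGN PT carry large relative error of unknown size, and the strain of the AKR-named table is unsettled.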

Other observations

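Markers outside the comparisons of the members are given as values only. The atrial and pulmonary vein cardiomyocyte list had means for 3 of 8 genes, none of them Myh6, Myl7, Actc1, Sln or Nppa, with median log2 ratios of -0.33 in Her2, -0.59 in C3Tag, 0.12 in BALB, -0.18 in SEAGN and 0.75 in the AKR-named table. The Schwann cell list had medians between -0.36 and 0.32, and the smooth muscle list between -0.68 in BALB and 0.98 in the AKR-named table. The smooth muscle medians cover 6 genes in Her2, C3Tag and BALB. They cover only 3 in SEAGN and the AKR-named table, where Acta2, Myh11 and Cnn1 had no mean. The myoepithelial list had medians of 1.12, -1.09, 0.82, 0.80 and -0.35 in Her2, C3Tag, BALB, SEAGN and the AKR-named table. Mki67, a marker of dividing cells, had ratios between -0.74 in C3Tag and 0.40 in SEAGN, and the lung endothelium list had medians between 0.47 and 3.08 over 3 or 4 of 5 genes. Airway markers had medians between 0.64 and 2.84 and alveolar macrophage markers between -0.38 in BALB and 3.35 in C3Tag, each over 1 or 2 genes. The T cell list, with 1 gene in 4 tables, had medians between -0.32 and 1.43. The skeletal muscle list had a median of -3.71 in Her2, -4.66 in C3Tag, -4.67 in BALB, -3.25 in SEAGN and 0.95 in the AKR-named table, over 1 to 4 of 5 genes. The luminal list had medians between -0.02 and 0.23, the proliferation list between -0.73 in C3Tag and 0.37 in SEAGN, and Fabp4, the adipocyte gene with a mean in 4 tables, had ratios between -2.73 in SEAGN and -0.38 in Her2. B cell markers had means in C3Tag (median 1.41) and the AKR-named table (2.92).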
